A study of Mus musculus with 4 samples.

Results

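The genes described here encode the nuclear subunits of the oxidative phosphorylation machinery, in whole amygdala of male mice. They were taken by gene name (names starting with Nduf, Cox4 to Cox8, Uqcr or Atp5), and a gene was kept where the scanner's flags put a probe well above its background on 3 or 4 arrays of some group. Of 81 genes with such names, 79 were kept, out of 19462 genes measured. The 2 genes that were not kept were Cox4i2 and Cox8c. Of the 79 members, 36 encode subunits of complex I, 7 of complex III, 15 of complex IV and 15 of complex V, and 6 are not subunits although their names match.

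The mice were C57BL/6J, aged 10 weeks, and were wild type (WT) or lacked the P2X7 receptor (P2X7R KO) (gene P2rx7), a channel that extracellular ATP opens. They were injected intraperitoneally with saline or with lipopolysaccharide (LPS), which comes from the outer membrane of bacteria and triggers inflammation, at 7.5 µg per mouse (also given as 250 µg/kg), and the amygdalae were taken 6 h later. Each of the 4 groups (WT saline, WT LPS, KO saline, KO LPS) had 4 mice and 4 one-colour arrays. Which mouse gave which array is not in the labels, so p-values measure the spread between arrays, which may in part be technical. The labels do not say how the knockout was made, nor whether wild-type animals were littermates. In whole tissue, fewer cells of a type and less RNA per cell cannot be told apart.

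Levels are log2 spot intensities from which the 75th percentile of the same array was subtracted. Differences are in log2 units with the standard error (SE) of a limma model over all 16 arrays (n = 4 arrays per group unless a missing array is named), and a gene was called where its p, adjusted by the Benjamini-Hochberg method over all 19462 genes, was under 0.05. The wild-type arrays were all scanned in 1 session on 2 slides and the knockout arrays in another session on 2 other slides, so genotype and scan session cannot be told apart. The 75th percentile of intensity was 581 to 1165 on wild-type arrays and 346 to 614 on knockout arrays, and between 58.1% and 71.9% of probes lay well above background. The targeted gene P2rx7 was lower in knockout by −1.51 ± 0.25 after saline (adjusted p = 0.000196) and by −1.65 ± 0.25 after LPS (adjusted p = 9.89e-05), at a probe whose place relative to the deletion is not known here. Of 6 amygdala markers, 5 were measured, and each of those was well above background on all 16 arrays; 1 was higher and 1 (Prkcd, −1.87) lower in knockout after saline, and 1 was lower after LPS. Of 6 striatum markers 4 were lower after saline and 3 after LPS, of 5 hippocampus markers 3 in each comparison, and of 4 excitatory neuron markers 3 after saline and 2 after LPS, where 1 was higher. Of 7 oligodendrocyte markers, 5 were lower and none higher in knockout after saline, and 6 were lower and 1 (Mbp, by 2.84) higher after LPS; the mean log2 level of that list ran from 2.51 to 3.69 in WT saline and from 1.76 to 2.34 in KO saline. Among 8 neuron markers, 3 were higher and 1 lower in knockout after saline. Over all genes, 28.5% were higher and 22.6% lower in knockout after saline, and 25.9% and 21.4% after LPS. In WT saline the median deviation of 6 LPS response genes ran from −4.76 to 2.57, and replicates 1 and 2 were the arrays on which those genes were high, so the member and complex counts after saline are also given without them. The part of cell composition and dissection in the results below was not tested.

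Oxidative phosphorylation makes most of the ATP of neurons. Complexes I, III and IV pass electrons from NADH to oxygen and pump protons across the inner mitochondrial membrane, and complex V (ATP synthase) uses the proton gradient to make ATP. A few subunits that hold cofactors or active sites form the catalytic core, while many small accessory subunits build and stabilise the complexes. All genes measured here lie in the nucleus, and the mitochondrially encoded subunits were not analysed here.

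The members are scattered over the genome, on 19 chromosomes. Promoter sequences (from 250 bases before to 50 bases after the annotated start, RefSeq, GRCm38.p6) were at hand for 61 of the 73 subunits measured. The upstream 250 bases of 4 of them are shown because their genes were among those most different between genotypes: Cox7c, the largest difference of all members, and the subunit with the largest difference that held each of 3 motifs. The subunits of a single chromosome were left out of this choice, so a subunit with a larger difference may hold one of the motifs. Capitals mark every match, on either strand, to the motifs searched (NRF1, a palindrome of 10 letters, ETS CCGGAAG, YY1 AANATGGCG, ESRRA TCAAGGTCA, CCAAT and TATAAA). The sequences are in the direction of transcription, and all 4 genes lie on the minus strand.
Cox7c, chr13:86046796-86047045: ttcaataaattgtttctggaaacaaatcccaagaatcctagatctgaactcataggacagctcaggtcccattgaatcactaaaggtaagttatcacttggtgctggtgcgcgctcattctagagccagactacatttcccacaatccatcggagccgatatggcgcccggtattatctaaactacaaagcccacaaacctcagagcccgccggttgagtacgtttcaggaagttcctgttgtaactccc
Atp5k, chr5:108434400-108434649: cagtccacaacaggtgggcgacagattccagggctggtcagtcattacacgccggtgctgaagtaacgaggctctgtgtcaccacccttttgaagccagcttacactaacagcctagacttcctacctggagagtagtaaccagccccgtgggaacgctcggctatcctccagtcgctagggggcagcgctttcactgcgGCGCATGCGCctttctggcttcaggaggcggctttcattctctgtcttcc
Cox6b1, chr7:30626115-30626364: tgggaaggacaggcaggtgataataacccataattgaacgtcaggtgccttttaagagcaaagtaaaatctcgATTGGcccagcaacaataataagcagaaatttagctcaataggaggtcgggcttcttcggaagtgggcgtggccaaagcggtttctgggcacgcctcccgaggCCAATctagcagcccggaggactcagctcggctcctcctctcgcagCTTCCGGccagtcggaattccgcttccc
Atp5j, chr16:84834977-84835226: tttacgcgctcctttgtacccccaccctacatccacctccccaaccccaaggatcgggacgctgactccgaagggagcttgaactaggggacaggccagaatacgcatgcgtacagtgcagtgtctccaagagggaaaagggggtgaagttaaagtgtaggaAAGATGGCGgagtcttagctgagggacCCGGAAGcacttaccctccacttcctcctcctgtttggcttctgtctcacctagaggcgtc

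The 250 bases of Cox7c held none of the 6 motifs. Atp5k held 1 NRF1 match, Cox6b1 1 ETS and 2 CCAAT matches, and Atp5j 1 YY1 and 1 ETS match. Over the whole 300 bases, the NRF1 letters were found in 14 of 61 subunits (23.0%) and in 10.0% of the 11638 measured genes with a promoter sequence. The YY1 letters were found in 10 subunits (16.4%) and in 5.07% of all genes, and the ETS letters in 14 subunits and in 17.3% of all genes. CCAAT was in 25 subunits (41.0%) and 42.4% of all genes, TATAAA in 7 subunits (11.5%) and 10.4% of all genes, and the ESRRA letters in 1 subunit and in 0.309% of all genes. The median difference between genotypes was 1.05 in subunits with the NRF1 letters and 1.07 in those without after saline, and 0.95 and 0.87 after LPS. For YY1 the medians were 1.30 with and 0.97 without after saline and 1.22 and 0.85 after LPS, from 10 genes with it, and no test was made of either contrast. A match describes the letters in this window and is not a binding site.

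Most members had higher levels in the knockout, after both injections. After saline, 58 of 79 members were higher and 3 lower (limma, adjusted p under 0.05), where 51% of all genes were called, 28.5% higher and 22.6% lower. After LPS, 50 members were higher and 3 lower, where 47.2% of all genes were called, 25.9% higher and 21.4% lower. Among the 14968 genes whose probe was well above background on all arrays, 28% were higher after saline and 25% after LPS. The median difference over the members was 0.97 after saline and 0.76 after LPS, against 0.07 and 0.05 over all genes. The 2 comparisons use different arrays, but these share the slides and scan session of their genotype and a common estimate of the spread, so they are not separate experiments. In both, 46 members were called higher, with 12 after saline alone and 4 after LPS alone. Whether the saline and LPS differences of a member differ is the interaction given below. Without WT saline replicates 1 and 2, 43 members were called higher and none of the 79 lower after saline (19.8% of all genes higher, median 0.80). Of the named subunits, Ndufs3 (1.27), Ndufv2 (1.06), Uqcrc2 (0.26), Cox5b (0.64), Cox6b2 (0.47), Cox7a1 (0.56), Cox8a (0.55) and Atp5g2 (0.32) then lost their saline call. The 2 groups did not overlap, with every knockout array above every wild-type array, for 51 members after saline (25.8% of all genes) and 53 after LPS (28.2%). Every knockout array lay below every wild-type array for 3 members after saline (20.4% of all genes) and 3 after LPS (23.7%).

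**Figure D1:**
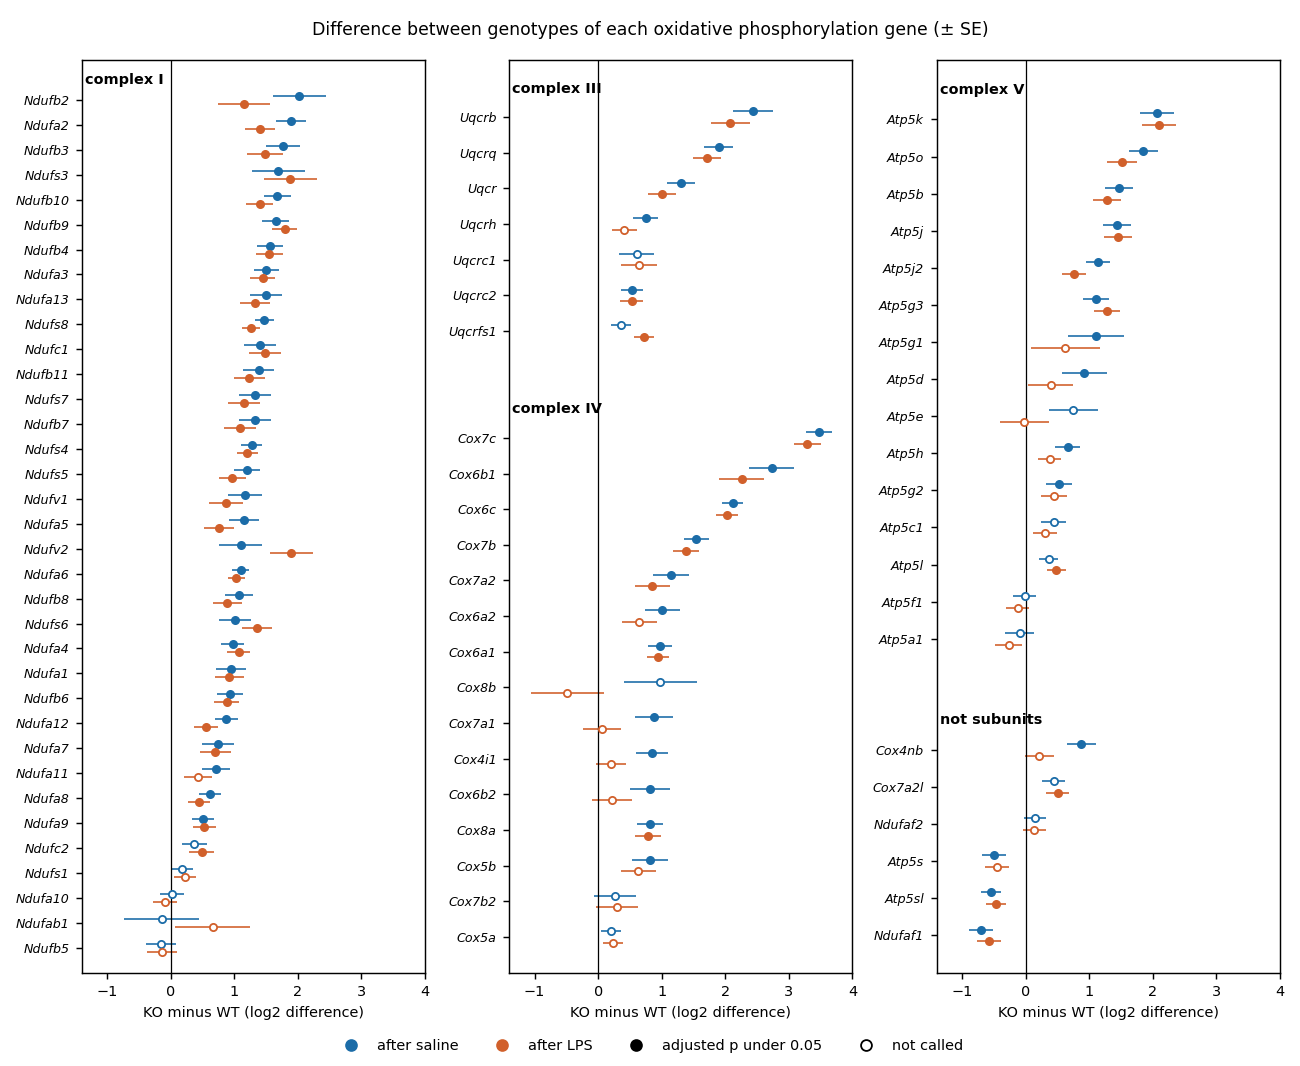
Difference between genotypes (knockout minus wild type, log2) of the members by complex (1 is not drawn), with SE, after saline (blue) and after LPS (orange); filled points have an adjusted p under 0.05. Most points lie right of 0, Cox7c lies farthest at 3.47 and 3.29, and 3 genes that are not subunits are called lower after saline.

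The shift was visible on single arrays. Expressed as the median deviation of the 79 members from their own mean over all arrays, the 4 WT saline arrays lay at −0.57, −0.51, −0.18 and −0.29 and the 4 WT LPS arrays at −0.48, −0.57, −0.53 and −0.47. The KO saline arrays lay at 1.02, 0.60, 0.42 and 0.41, and the KO LPS arrays at 0.06, 0.25, 0.19 and 0.58. All 8 knockout arrays were above all 8 wild-type arrays, and the highest array of each knockout group was KO saline replicate 1 and KO LPS replicate 4. The same measure over all genes ran from −0.06 to 0.21 on the 16 arrays.

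**Figure D2:**
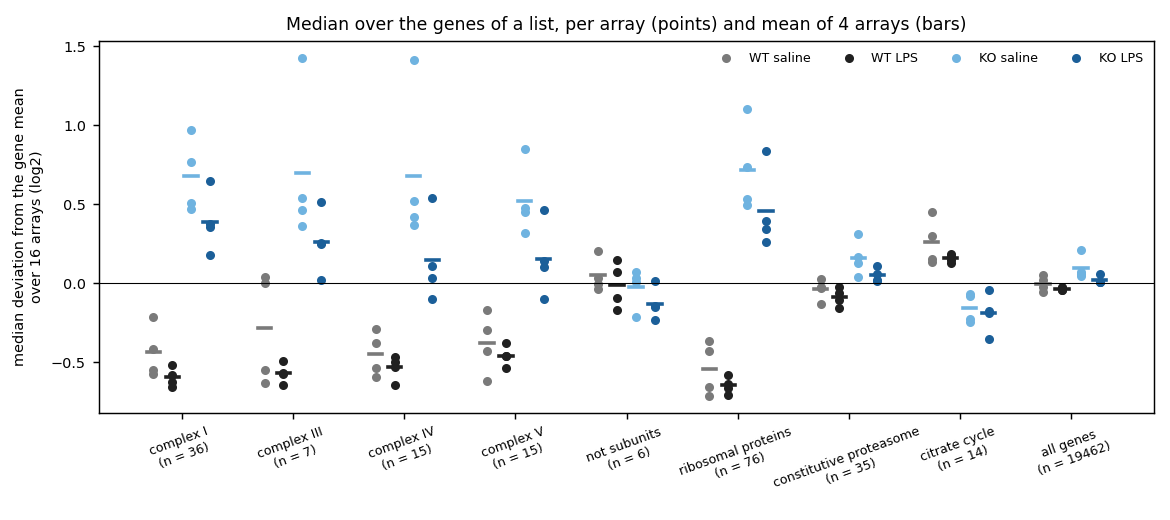
Median deviation of the genes of each list from their mean over the 16 arrays (log2), 1 point per array and a bar at the mean of 4 arrays, for the complexes and for comparison lists. Complexes I, III, IV and V and the ribosomal proteins separate the genotypes within each treatment, the proteasome does so by less (−0.13 to 0.03 in WT saline and 0.04 to 0.31 in KO saline), the 6 members that are not subunits overlap, and the citrate cycle runs the other way.

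Complex I, the NADH dehydrogenase, was higher in knockout at most of its subunits. Of 36 subunits, 30 were higher in knockout after saline and none lower, and 30 were higher and 1 lower after LPS, with medians of 1.13 and 1.05. Both comparisons called 29 of the same subunits higher. Without WT saline replicates 1 and 2, 23 were higher after saline, with a median of 1.02. Over all the alternative settings the count of higher subunits stayed between 22 and 31 in both comparisons, and the median between 0.71 and 1.22 after saline.

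Within its catalytic core, 5 of 7 subunits were higher in both comparisons. Ndufs3, a core subunit of the arm that faces the matrix, had levels of 2.60, 2.23, 3.44 and 3.05 in WT saline and 2.41, 2.76, 2.46 and 3.14 in WT LPS. In KO saline it was at 5.63, 4.79, 4.71 and 2.94 and in KO LPS at 4.46, 4.65, 4.48 and 4.71. KO saline replicate 4 lay among the wild-type arrays and the other 7 knockout arrays lay above all of them, and the difference was 1.69 ± 0.42 after saline (adjusted p = 0.00376) and 1.88 ± 0.42 after LPS (adjusted p = 0.00197). Under normexp background correction the saline difference was 0.94 and not called (adjusted p = 0.098).

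Ndufs8 and Ndufs7, which carry iron-sulphur clusters near the quinone site, were higher by 1.47 ± 0.14 and 1.33 ± 0.25 after saline and by 1.26 ± 0.14 and 1.15 ± 0.25 after LPS. Ndufv1, which binds FMN and NADH, was higher by 1.17 ± 0.27 and 0.87 ± 0.27, and its partner Ndufv2 by 1.10 ± 0.34 and 1.90 ± 0.34 at its brightest probe. Under normexp the Ndufv1 differences of 0.48 and 0.56 were not called. These calls had adjusted p-values from 2.24e-06 to 0.014 in limma. The brightest Ndufv2 probe was at 1.42 in KO saline replicate 1, below WT saline (1.83, 1.43, 1.75 and 1.69). The other Ndufv2 probe was not called (−0.08 after saline and −0.55 after LPS).

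Ndufs1, the largest core subunit, was not called, at 0.18 ± 0.17 after saline (adjusted p = 0.411) and 0.22 ± 0.17 after LPS (adjusted p = 0.319), and under normexp its saline difference turned to −0.52 (adjusted p = 0.0215).

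Of the 29 other complex I subunits, 25 were higher in each comparison. Ndufb9, an accessory subunit of the membrane arm, was at 5.37, 5.85 and 5.78 in WT saline with replicate 1 missing as a flagged outlier spot, and at 7.84, 7.35, 6.98 and 7.09 in KO saline. It was at 5.22, 5.35, 5.33 and 5.26 in WT LPS and at 6.89, 7.11, 6.98 and 7.37 in KO LPS. The genotypes did not overlap, and the difference was 1.65 ± 0.21 after saline (adjusted p = 3.16e-05) and 1.80 ± 0.20 after LPS (adjusted p = 9.04e-06). Other accessory subunits with large differences were Ndufa2 (1.89 ± 0.24 and 1.41 ± 0.24 after saline and LPS) and Ndufb3 (1.76 ± 0.26 and 1.48 ± 0.28, with WT LPS replicate 3 missing).

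Of the accessory subunits named here after their values were seen, Ndufa10 (0.02 and −0.09) and Ndufb5 (−0.15 and −0.14) were not called in either comparison. In Ndufab1 and Ndufb2, also named after their values were seen, a single low array moved the saline difference of the brightest probe. Ndufab1, the mitochondrial acyl carrier protein, was at 4.27, 4.06, 4.35 and 0.59 in KO saline and between 3.11 and 3.71 in WT saline. With that low array its difference after saline was −0.14 (adjusted p = 0.854), and without it 0.77 (adjusted p = 0.00502). A dimmer Ndufab1 probe was called higher, by 1.04 after saline and 0.79 after LPS, and a further one was not called (0.28 and 0.42). Ndufb2 was at 1.86, 4.25, 4.21 and 4.26 in WT saline and from 5.47 to 5.93 in KO saline, and its difference of 2.02 became 1.43 without the low array, with the call kept. The other Ndufb2 probe was also called higher, by 1.18 after saline and 1.01 after LPS. Ndufa4, long counted with complex I and now assigned to complex IV, was higher by 0.97 ± 0.18 and 1.07 ± 0.18.

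Complex III, the cytochrome bc1 complex, had 5 of 7 subunits higher in each comparison, with medians of 0.75 after saline and 0.72 after LPS. After saline 3 were higher without WT saline replicates 1 and 2 (median 0.42), under normexp (0.38) and under quantile scaling (0.12). Its larger differences were in small accessory subunits. Uqcrb was at 0.77, 2.02, 2.48 and 2.44 in WT saline and 1.67, 2.20, 1.80 and 2.47 in WT LPS. In knockout it was at 4.71, 4.46, 4.18 and 4.12 after saline and 3.95, 4.08, 4.18 and 4.25 after LPS. No knockout array overlapped with wild type, and the difference was 2.44 ± 0.31 (adjusted p = 2.23e-05) after saline and 2.08 ± 0.31 (adjusted p = 8.91e-05) after LPS. Uqcrq was higher by 1.89 ± 0.22 and 1.71 ± 0.22 at its brightest probe, while its other probe was not called (−0.54 after saline and −0.18 after LPS). Uqcr (now Uqcr11) was higher by 1.30 ± 0.23 and 1.0 ± 0.23.

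The core proteins of complex III had smaller differences at their brightest probes. Uqcrc2 was higher by 0.53 ± 0.18 in each comparison (adjusted p = 0.0205 and 0.023), and neither call held under normexp (0.20 and 0.33) or quantile scaling (0.12 and 0.23). Uqcrc2 was also not called after saline without WT saline replicate 1 (0.41, adjusted p = 0.075) or replicate 2 (0.47, adjusted p = 0.059). Uqcrc1 was not called at its brightest probe (0.60 ± 0.28, adjusted p = 0.0818, and 0.64 ± 0.28, adjusted p = 0.0707), while its other probe was higher by 1.05 ± 0.29 and 1.13 ± 0.29 (adjusted p = 0.00747 and 0.0053 over probes). The Rieske iron-sulphur protein Uqcrfs1 was called after LPS (0.72 ± 0.16, adjusted p = 0.00173) and not after saline (0.36 ± 0.16, adjusted p = 0.0663). The interaction for Uqcrfs1 was 0.36 ± 0.22 and not called (adjusted p = 0.859).

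Complex IV, cytochrome c oxidase, held the largest differences of all members, in Cox7c and Cox6b1, each measured by 1 probe. Of 15 subunits, 12 were higher after saline and 7 after LPS, and none was lower, with medians of 0.97 and 0.65. After saline 8 were higher without WT saline replicates 1 and 2, 7 with probe G+C correction, and 8 (with 1 lower) under quantile scaling, where the LPS median was 0.25. Cox7c, a small membrane subunit, was at −0.51, −0.99, −0.37 and −0.59 in WT saline and −0.80, −0.66, −0.79 and −0.72 in WT LPS. In knockout it was at 3.24, 3.07, 2.54 and 2.57 after saline and 2.28, 2.52, 2.37 and 3.03 after LPS. The lowest knockout array lay more than 2 log2 units above the highest wild-type array, and the difference was 3.47 ± 0.21 after saline (adjusted p = 2.8e-08) and 3.29 ± 0.21 after LPS (adjusted p = 3.89e-08).

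Cox6b1, which sits on the intermembrane side of the oxidase, was at −0.56, −1.50, 0.32 and 0.14 in WT saline, −0.57, −0.28, −0.76 and −1.0 in WT LPS, 3.07, 2.09, 2.18 and 1.97 in KO saline and 1.10, 1.51, 1.72 and 2.07 in KO LPS. It too was higher on every knockout array, by 2.73 ± 0.36 (adjusted p = 2.86e-05) and 2.26 ± 0.36 (adjusted p = 0.000142). Cox6c was higher by 2.12 ± 0.17 and 2.02 ± 0.17, and Cox7b by 1.55 ± 0.20 and 1.38 ± 0.20. The probes of Cox7c (chr13:86184486-86185363, mm9) and Cox6b1 (chr7:31409575-31411071, mm9) are 60 bases long and map over 878 and 1497 bases, so each is split by an intron and targets spliced RNA.

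Cox5a, Cox4i1 and Cox5b had differences below the complex IV medians in both comparisons, Cox5b only slightly so after LPS. Cox5a was at 5.62, 6.14, 6.00 and 6.11 in WT saline and 6.17, 6.27, 6.09 and 6.13 in KO saline, and was called in neither comparison (0.20 ± 0.16, adjusted p = 0.314, and 0.23 ± 0.16, adjusted p = 0.245). Under quantile scaling the saline difference of Cox5a turned to −0.51. Cox4i1 was higher after saline (0.85 ± 0.25, adjusted p = 0.0118, WT saline replicate 1 missing) and was not called after LPS (0.20 ± 0.23, adjusted p = 0.499). Cox5b was higher after saline by 0.82 ± 0.28 (adjusted p = 0.0234), a call lost without KO saline replicate 1 (0.55, adjusted p = 0.071) and without WT saline replicate 1 (0.78) or 2 (0.74).

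Several oxidase subunits exist as isoforms, and both kinds were measured here. The broadly expressed forms Cox6a1 (0.98 ± 0.19 and 0.94 ± 0.17, WT saline replicate 1 missing), Cox7a2 (1.14 ± 0.28 and 0.85 ± 0.28) and Cox8a (0.82 ± 0.21 and 0.78 ± 0.21) were higher in both comparisons. For Cox7a2 these are values of the brightest probe, and its other probe was not called (0.83 and 0.78). The Cox7a2 call after LPS was lost in 2 of the 16 fits that leave out 1 array. The heart and skeletal muscle forms Cox6a2 (1.01 ± 0.27, adjusted p = 0.00599) and Cox7a1 (0.88 ± 0.30, adjusted p = 0.0232) were higher after saline and not called after LPS (0.65, adjusted p = 0.0598, and 0.06, adjusted p = 0.877). On KO saline replicate 1 Cox7a1 was at 2.05, against 0.57 to 0.82 on the other KO saline arrays, and without that array its difference was 0.53 (adjusted p = 0.06), and the call was also lost without WT saline replicate 1 (0.78) or 2 (0.76). Cox6b2, known from testis, had a like pattern, with 0.066 on that array and −1.57 to −1.37 on the others, and its difference of 0.82 became 0.43 without it (adjusted p = 0.106). The Cox6b2 call was also lost without WT saline replicate 1 (0.72), 2 (0.69) or 4 (0.88). Cox8b (0.97 ± 0.57 and −0.49 ± 0.57) and Cox7b2 (0.27 ± 0.33 and 0.29 ± 0.33) were not called and were not well above background on every array. Of 6 muscle markers 4 were measured, and all 4 were higher in knockout after saline (28.5% of all genes) and 3 after LPS (25.9%). Their mean log2 level ran from −3.86 to −3.42 in WT saline and from −2.50 to −2.01 in KO saline. The part of muscle RNA in the values of the muscle forms was not tested.

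Complex V, the ATP synthase, had 10 of 15 subunits higher after saline and 7 after LPS and none lower, with medians of 0.93 and 0.48. After saline 8 were higher without WT saline replicates 1 and 2 (median 0.79) and 8 without KO saline replicate 1 (median 0.52). Under quantile scaling 5 were higher and 1 lower after saline (median 0.32), and 6 and 1 after LPS (median 0.25). Atp5k, the e subunit of the membrane part, was at 2.56, 2.12, 2.89 and 2.65 in WT saline, 1.92, 2.35, 2.12 and 1.56 in WT LPS, 4.76, 4.92, 4.30 and 4.52 in KO saline and 3.50, 3.97, 3.97 and 4.90 in KO LPS. Every knockout array was above every wild-type array, with differences of 2.07 ± 0.27 (adjusted p = 2.95e-05) and 2.10 ± 0.27 (adjusted p = 2.71e-05). Atp5o, which joins the stalk to the catalytic head, was higher by 1.85 ± 0.23 and 1.52 ± 0.23, and Atp5j, a further stalk subunit, by 1.43 ± 0.22 and 1.45 ± 0.22. The ring forms, which carry the protons, were higher for Atp5g3 (1.11 ± 0.20 and 1.28 ± 0.20), while Atp5g2 (0.53 ± 0.21, adjusted p = 0.043) and Atp5g1 (1.11 ± 0.44, adjusted p = 0.0496, 2 WT LPS arrays missing) were called after saline alone at their brightest probes. The other Atp5g2 probe was higher by 1.17 ± 0.18 after saline and 1.05 ± 0.18 after LPS. The Atp5g2 call was lost in 9 of the 16 fits that leave out 1 array, among them those without WT saline replicate 1 (0.48, adjusted p = 0.1) or 2 (0.44, adjusted p = 0.118). Under normexp the Atp5g2 difference was −0.18. Without WT saline replicate 1 the Atp5g1 difference was 0.52 and not called, and it was called in only 3 of the 16 fits that leave out 1 array.

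The subunits of the catalytic head were uneven. Atp5b, the catalytic beta subunit, was higher at its brightest probe by 1.47 ± 0.22 and 1.28 ± 0.22, while its other probes differed, as given further on. Atp5a1, the alpha subunit that alternates with beta around the head, was at 6.31, 5.53 and 6.18 in WT saline (replicate 3 missing), 6.52, 5.85, 6.44 and 5.84 in WT LPS, 6.06, 5.92, 5.96 and 5.71 in KO saline and 5.77, 6.15, 5.74 and 5.94 in KO LPS. At this brightest probe the groups overlapped and the differences of −0.09 ± 0.23 (adjusted p = 0.76) and −0.27 ± 0.21 (adjusted p = 0.322) were not called. Under quantile scaling both were called lower (−0.80 and −0.72), and with the mean of its probes the LPS one (−0.55, adjusted p = 0.0254). At its other probe Atp5a1 was called lower in both comparisons, by −0.51 after saline and −0.83 after LPS. The gamma subunit Atp5c1 was not called either (0.44 ± 0.19, adjusted p = 0.0639, and 0.31 ± 0.19, adjusted p = 0.194). Atp5f1, the b subunit of the stalk, named after its values were seen, was at −0.01 ± 0.18 and −0.12 ± 0.18, not called.

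**Figure D3:**
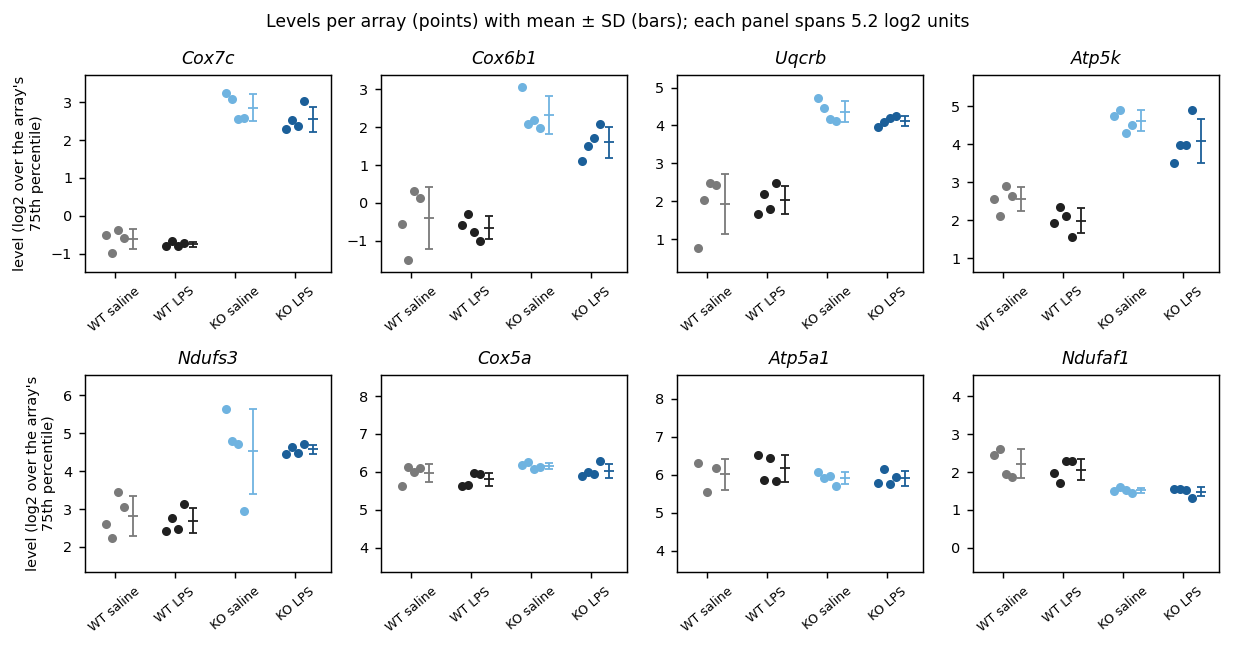
Level per array (log2 over the 75th percentile of the array) of 8 members in the 4 groups, with mean ± SD at the right of each group (n = 4, and 3 for Atp5a1 in WT saline). In Cox7c, Cox6b1, Uqcrb and Atp5k the knockout arrays lie above all wild-type arrays, 1 KO saline array of Ndufs3 lies at 2.94, Cox5a and Atp5a1 overlap, and Ndufaf1 is lower in knockout.

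The 6 members that are not subunits did not share the shift at their brightest probes, with 1 higher and 3 lower after saline and 1 higher and 2 lower after LPS, and medians of −0.18 and −0.15. With the mean over the probes of each gene the medians were 0.03 and 0.19. The assembly factors and the genes Atp5s and Atp5sl were named after their values were seen. Ndufaf1, an assembly factor of complex I, was at 2.46, 2.62, 1.94 and 1.88 in WT saline, 1.96, 1.71, 2.28 and 2.29 in WT LPS, 1.50, 1.62, 1.52 and 1.45 in KO saline and 1.55, 1.55, 1.51 and 1.31 in KO LPS. All knockout arrays lay below all wild-type arrays, with differences of −0.70 ± 0.19 (adjusted p = 0.00609) and −0.58 ± 0.19 (adjusted p = 0.0193). Atp5sl (now Dmac2, known for complex I assembly) was lower by −0.55 ± 0.16 (adjusted p = 0.0108) and −0.46 ± 0.16 (adjusted p = 0.0276), and Atp5s (now Dmac2l) by −0.50 ± 0.19 after saline (adjusted p = 0.0355). Without WT saline replicates 1 and 2 none of these was called after saline (Ndufaf1 −0.39, adjusted p = 0.129, Atp5sl −0.41, adjusted p = 0.115, and Atp5s −0.55, adjusted p = 0.0688). These values are from the brightest probes. The other, dimmer Atp5s probe ran the other way, at 0.34 after saline and 0.91 after LPS. The other Atp5sl probe was at 0.11 after saline and −0.52 after LPS. Ndufaf2, a further assembly factor, was not called (0.15 and 0.14). Cox7a2l, which links complexes III and IV, was higher after LPS (0.51 ± 0.18, adjusted p = 0.0321) and at 0.45 ± 0.18 after saline (adjusted p = 0.0526). Over the 16 fits that leave out 1 array, its LPS call was lost in 5 and its saline difference was called in 3. Cox4nb (now Emc8, a part of the endoplasmic reticulum membrane complex) was higher after saline (0.88 ± 0.23, adjusted p = 0.00567) and not called after LPS (0.22, adjusted p = 0.461).

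LPS was not followed by a called change in any member at 6 h. In wild type 0 of 79 members were called (limma, 1 at an unadjusted p under 0.05), where 0.0103% of all genes were called (0.00514% higher and 0.00514% lower). In knockout 0 were called (9 at an unadjusted p under 0.05), where 3.65% of all genes were called (2.49% higher and 1.16% lower). For the interaction 0 were called (0 at an unadjusted p under 0.05), where 0.036% of all genes were called (0.0257% higher and 0.0103% lower). Of the 6 LPS response genes, 5 were called in knockout (median 7.15). In wild type 0 of those 6 were called, although their median was 2.996, and 0 for the interaction (median 4.33). WT saline replicates 1 and 2 already had those genes high. The lack of calls in wild type and for the interaction thus does not decide whether members responded to LPS. The LPS and saline arrays of a genotype did not overlap for 6 members lower in wild type (2.9% of all genes) and 7 lower in knockout (6.17%), and for 0 members higher in either (1.9% and 5.1% of all genes). The median over the members was −0.16 in wild type and −0.28 in knockout, against −0.04 and −0.09 over all genes, and the member median in knockout was −0.03 under normexp. Of 79 members, 66 had a difference below 0 in wild type and 72 in knockout. Without WT saline replicates 1 and 2 the wild-type median was −0.33, with 0 members called and 12 at an unadjusted p under 0.05. There 3.13% of all genes were called in wild type. The interaction without those replicates had a member median of 0.02, with 0 members called, where 0.00514% of all genes were called.

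The members with the smallest p for LPS were spread over the complexes. In wild type they were Ndufs6 (−0.75 ± 0.25, adjusted p = 0.617, WT saline replicate 1 missing), Atp5k (−0.57 ± 0.27, adjusted p = 0.755) and Ndufa4 (−0.35 ± 0.18, adjusted p = 0.759). In knockout they were Cox4nb (−0.69 ± 0.23, adjusted p = 0.148), Atp5j2 (−0.54 ± 0.19, adjusted p = 0.179) and Cox6b2 (−0.85 ± 0.31, adjusted p = 0.197). The Ndufs6 probe was at 3.80, 3.73 and 3.65 in WT saline and at 2.60, 3.63, 2.51 and 3.19 in WT LPS. A probe that overlaps it ran from 3.53 to 3.69 in WT saline and 3.23 to 3.66 in WT LPS. A further overlapping one ran from 2.98 to 3.25 and 2.79 to 3.25. Atp5j2, the f subunit of ATP synthase, was at 6.03, 5.80, 5.57 and 5.56 in KO saline and at 4.86, 4.98, 5.14 and 5.84 in KO LPS. KO LPS replicate 4 lay within the saline group and the other 3 arrays below it, and without that array Atp5j2 was called lower (−0.75, adjusted p = 0.016). Without KO saline replicate 1, Cox7b2 was called lower after LPS (−0.89, adjusted p = 0.0389), a gene not well above background on all arrays. For the interaction the smallest p-values were those of Cox4nb (−0.66 ± 0.33, adjusted p = 0.748), Cox7a1 (−0.81 ± 0.42, adjusted p = 0.768) and Cox4i1 (−0.65 ± 0.34, adjusted p = 0.784).

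Probes of 1 gene did not always give the same difference. Among the members, 25 genes had 2 or 3 kept probes (55 probes, 35 pairs), and p-values were here adjusted over all 28347 kept probes. Cox7c, Cox6b1, Cox6c, Uqcrb and Atp5k each had 1 probe, so their large differences could not be set beside another probe. After saline, 17 pairs were called the same way, 2 in opposite ways, 14 had 1 probe called and 2 had none. After LPS the numbers were 10, 3, 18 and 4. The median absolute difference between the probes of a pair was 0.63 in each comparison and the largest was 2.51 after saline and 2.97 after LPS. Counted by probe, 75 of 109 member probes were higher and 6 lower after saline, where 26.4% of all probes were higher and 25.7% lower, and 65 were higher and 7 lower after LPS, where 23.9% were higher and 24.5% lower. The probe nearer the 3′ end had the more positive difference in 19 of 35 pairs after saline and in 18 after LPS.

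**Figure D4:**
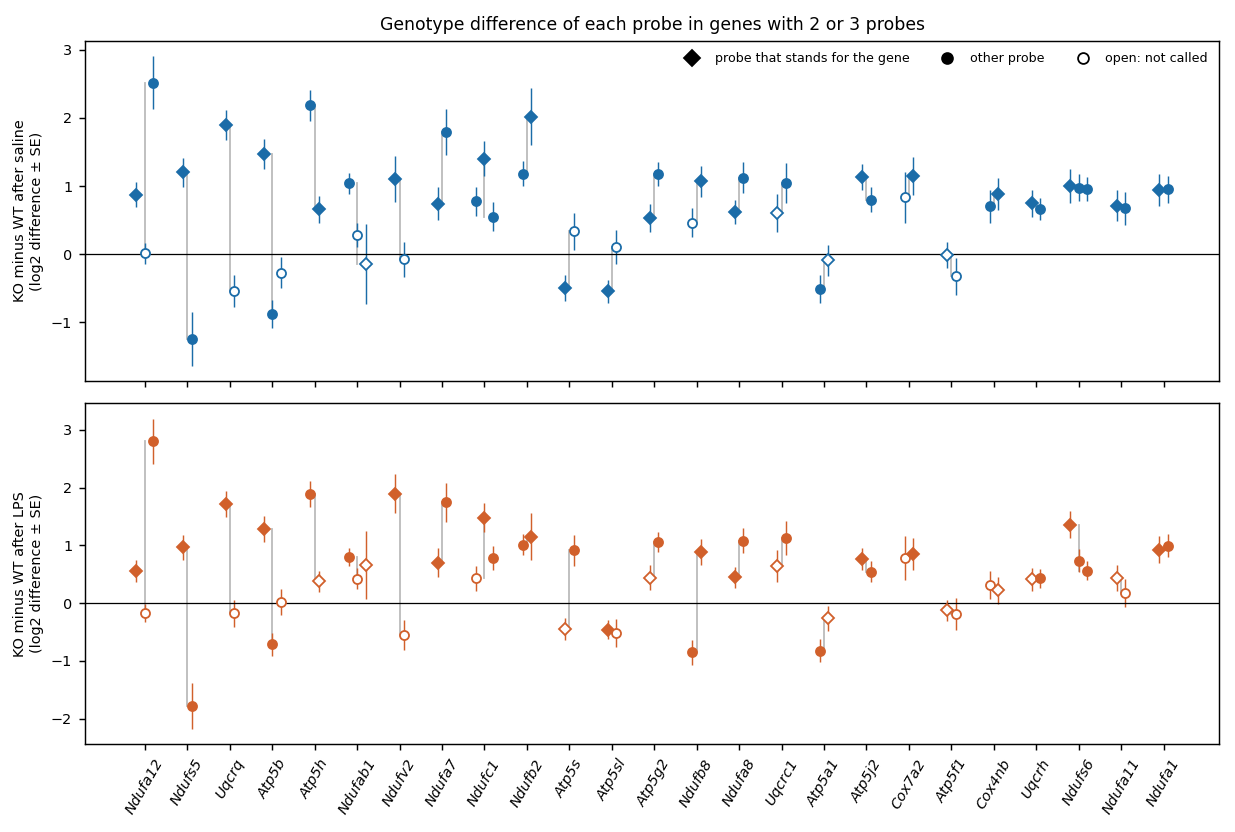
Difference between genotypes (log2, ± SE) of each probe of the 25 members with 2 or 3 probes, after saline (top) and after LPS (bottom), ordered by the spread between probes after saline; diamonds mark the brightest probe, which stands for the gene, and open symbols were not called. Ndufa12, at the left, has probes at 0.01 and 2.52, while the probes of Ndufs6 and Ndufa1, at the right, nearly coincide after saline.

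Atp5b shows the disagreement most clearly, since its 3 probes were all well above background on all 16 arrays. Their middle 30 bases are shown, from the 3′-most probe (chr10:127527255-127527314, mm9) through the internal one (chr10:127522569-127522628) to the 5′-most one (chr10:127521478-127522156, split by an intron).
Atp5b 3′ probe: gaagatgtgatgttctctctgaagagtatt
Atp5b internal probe: gtatttgctggtgttggtgaaaagacccgt
Atp5b 5′ probe: cttattgatgagagaggtcctatcaaaacc

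The 3′ probe of Atp5b was at 5.48, 5.58, 6.38 and 5.96 in WT saline and 7.82, 7.21, 7.17 and 7.06 in KO saline, higher by 1.47 ± 0.22 (adjusted p = 7.88e-05 over probes). The internal probe was at 4.70, 4.79, 4.76 and 4.89 in WT saline and 3.64, 3.64, 4.27 and 4.06 in KO saline, lower by −0.88 ± 0.20 (adjusted p = 0.00229). Neither probe's groups overlapped, and the directions were opposite. After LPS the same probes differed by 1.28 ± 0.22 and −0.71 ± 0.20 (adjusted p = 0.00929 for the latter), and the 5′ probe was called in neither comparison (−0.27 ± 0.22 and 0.02 ± 0.22). With the mean of its probes in place of the brightest, Atp5b was not called (0.11, adjusted p = 0.585, and 0.20, adjusted p = 0.306).

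In Ndufa12, an accessory subunit of complex I, 2 probes that share 40 of their 60 bases differed by 2.51 after saline. Their ends are shown because the 20 bases that each probe has alone, in capitals, are all that separates them. Both are split over the same intron on chromosome 10.
Ndufa12 upstream probe, bases 1 to 30: CTGGTGGGAGAAGACAAATAtggaaataaa
Ndufa12 downstream probe, bases 31 to 60: attttttggcCGCCACCGATGGGTCATCTA

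The upstream Ndufa12 probe was at −1.30, −1.66, −0.30 and −0.42 in WT saline and 1.43, 1.59, 1.61 and 1.76 in KO saline, with a difference of 2.52 ± 0.39 (adjusted p = 0.00011). The downstream probe was at 3.34, 3.76, 3.50 and 3.61 in WT saline and 3.70, 3.57, 3.59 and 3.40 in KO saline, with a difference of 0.01 ± 0.15 (adjusted p = 0.955). The upstream probe separated the genotypes on every array and the downstream probe on none of the group pairs, and after LPS they stood at 2.80 ± 0.39 and −0.17 ± 0.15. The third Ndufa12 probe, in the 3′ part and the brightest, gave 0.87 ± 0.19 after saline.

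In Atp5h, the d subunit of the ATP synthase stalk, the ends of 2 probes overlap by 20 bases, in capitals.
Atp5h upstream probe, bases 31 to 60: gaccagatgaCCATTGATGACTTGAATGAG
Atp5h downstream probe, bases 1 to 30: CCATTGATGACTTGAATGAGatcttcccag

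The upstream Atp5h probe, the brighter, was higher in knockout by 0.66 ± 0.20 after saline (WT saline replicate 1 missing) and the downstream probe by 2.19 ± 0.23. Across the 8 overlapping pairs, in 6 genes, the median absolute difference was 0.18 after saline and 0.63 after LPS. The 3 probes of Ndufs6, which overlap by 33 to 54 bases, gave 1.0, 0.98 and 0.95 after saline (WT saline replicate 1 missing for the first) and 1.36, 0.73 and 0.56 after LPS. Ndufa12 and Atp5h were named after their values were seen.

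The other opposite calls involved dim probes. Ndufs5 was higher by 1.20 ± 0.21 at its brightest probe and lower by −1.25 ± 0.39 (adjusted p = 0.0156) at a probe that was well above background on 11 of 16 arrays and has 23.3% G+C. Ndufb8 was higher after LPS by 0.89 ± 0.23 at its brightest probe and lower by −0.86 ± 0.22 (adjusted p = 0.00478) at a probe well above background on 11 arrays. Under normexp background correction the genes with opposite calls were Atp5b, Atp5s, Atp5sl and Ndufa12 after saline, and there was none among the 25 after LPS.

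Probe base composition moved with the genotype difference over the whole array. Over all 28347 kept probes the median difference after saline went from −0.35 in probes with 35% G+C or less to 0.48 in probes above 50%, and Spearman's rho was 0.24 after saline and 0.19 after LPS (across probes, which share the same arrays). The member probes showed less of a slope. Their median lay between 0.66 and 1.0 in every G+C class after saline, where the classes over 35 to 40 and over 45 to 50 held 19 and 8 member probes, and rho over the 109 member probes was 0.15 after saline and −0.00 after LPS. With each array corrected for probe G+C, 50 members were called higher and 2 lower after saline, and 48 and 3 after LPS, where 27.4% and 25.1% of all genes were higher. Member probes that map over more than 100 bases, and so are split by an intron, had a median of 1.0 after saline (24 probes) and the others of 0.87 (85 probes).

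**Figure D5:**
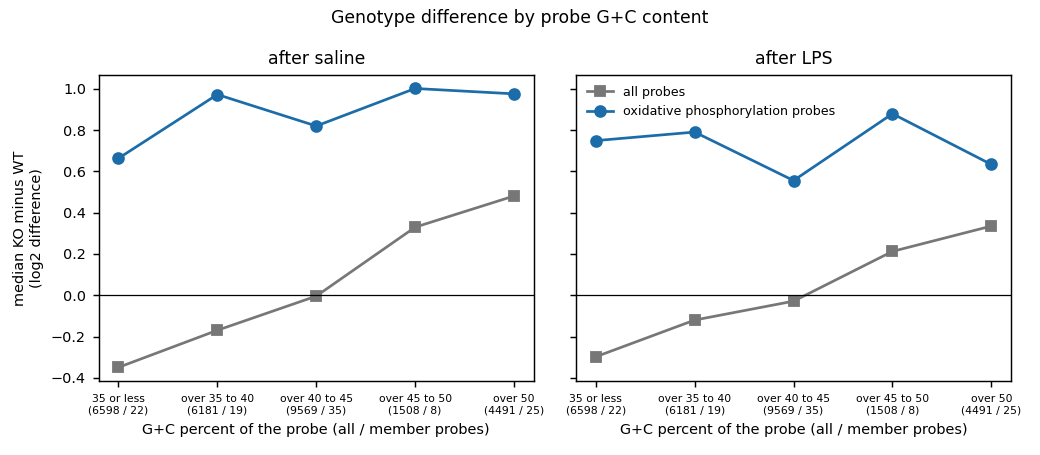
Median difference between genotypes (log2) of all kept probes (grey) and of the 109 member probes (blue) in 5 classes of probe G+C percent, with the number of all and member probes under each class, after saline (left) and LPS (right). The grey line climbs from −0.35 to 0.48 after saline while the blue line stays between 0.66 and 1.0; the class over 45 to 50 holds 8 member probes.

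Other mitochondrial genes were counted from fixed lists. Over all genes, 28.5% were higher and 22.6% lower in knockout after saline, and 25.9% and 21.4% after LPS. Of 8 genes of complex II and electron carriers, 2 were higher and 3 lower in knockout after saline and 2 higher and 1 lower after LPS (medians −0.18 and −0.25). Of 14 citrate cycle genes, 3 were higher and 9 lower after saline and 2 and 4 after LPS (medians −0.62 and −0.43), the pathway that supplies complex I with NADH. Of 13 assembly genes of complexes III and IV, 5 were higher and 4 lower after saline and 5 and 2 after LPS, and of 11 regulators of mitochondrial genes 2 were higher and 3 lower after saline and 2 and 2 after LPS. Of 7 mitochondrial carriers and porins 0 were higher and 1 lower after saline (limma, 1 at an unadjusted p under 0.05) and 1 higher and 0 lower after LPS (3 at an unadjusted p under 0.05), with medians of 0.19 and 0.15. Of 16 glycolysis genes 5 were higher and none of them lower in each comparison.

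Among families of other small, abundant proteins, the ribosomal proteins were much like the members and the proteasome was not. The counts for 76 ribosomal protein genes were 66 higher and 2 lower after saline, and 62 higher and 2 lower after LPS, with medians of 1.27 and 1.04. Of 35 genes of the constitutive proteasome, 11 were higher and 2 lower after saline and 12 and 4 after LPS, with medians of 0.14 and 0.15. The shares over all genes were 28.5% higher and 22.6% lower after saline, and 25.9% and 21.4% after LPS. Higher levels in knockout were thus also measured in a family outside the mitochondrion.

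In the authors' deposited table of group means, 77 of the 79 member probes were listed, and in both comparisons all 77 had the same sign as the difference computed here, with medians of 1.01 after saline and 0.85 after LPS. In the authors' deposited table of fold changes, 39 members were listed as at least 2-fold up after saline and 31 after LPS, and none of the 79 as 2-fold down.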

How the data were processed

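The deposited arrays give spot intensity in 1 colour. The submitters' processing notes name Agilent Feature Extraction 9.5, and per the file headers the processed signal was already background-subtracted and detrended. The deposited group means are the authors' log2 values, averaged over 4 arrays, and the authors' fold changes between groups, deposited as a further list, are linear. Both lists also carry 32 columns of detection calls, which entered no step.

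Here, control spots were left out and outlier-flagged spots set to missing. The processed signal was put on a log2 scale minus the 75th percentile of the array. Probes well above background on at least 3 of 4 arrays of any group were kept (28347 of 41174), and the brightest kept probe stood for a gene. limma 3.58.1 (R 4.3.3, data.table package 1.17.8, statmod 1.5.0) was fitted with 4 group means to all 16 arrays, with Benjamini-Hochberg adjustment, and the code was tested on simulated data. The smallest median absolute difference between arrays was 0.12 (log2), and no pair of arrays held the same values. Probe positions are on mm9, and promoters are RefSeq's on GRCm38.p6. Names were those of the files.

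The members and lists were chosen with earlier results of these data known. Genes were named by rule: in each complex the 4 largest mean genotype differences called in both comparisons and up to 3 called against the median of the complex, the catalytic core, isoform sets, the 3 smallest p-values for LPS and interaction, and genes with opposite probes (46 genes). Others were named after their values were seen. Whether a probe lies in coding sequence was not determined. Alternatives were normexp (offset 50), quantile and median scaling, filters, probe averages, G+C correction, subsets of arrays and blocks. The number of arrays limits the precision. One member is counted but its own values are not reported here.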

Additional observations from a re-analysis of the deposited data

Results flagged for a closer look

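In 14 of 197 groups of 4 arrays screened (the named genes and the medians of the complexes), 1 array stood apart from the other 3 by more than the critical value of Dixon's test. Chance alone marks about 1 in 20 groups. Of the 14, 8 were KO saline replicate 1, each time as the highest array. Its level of Cox4nb was 1.17 (others 0.01 to 0.17), of Cox6b2 0.066 (−1.57 to −1.37), of Cox7a1 2.05 (0.57 to 0.82) and of Cox8b −1.15 (−3.33 to −3.08). Its level of Ndufv1 was 6.59 (5.13 to 5.38) and of Uqcrc1 6.66 (5.29 to 5.45). The median deviation of complex III on that array was 1.43 (0.36 to 0.54) and that of complex IV 1.41 (0.37 to 0.52).

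The other marked arrays were spread over the groups. WT saline replicate 1 was low for Atp5c1, at 5.58 (6.34 to 6.47), and for Cox7a2l, at 2.19 (2.72 to 2.80). WT saline replicate 2 was low for Cox4nb, at −0.93 (−0.46 to −0.37), and WT LPS replicate 1 was low for Atp5o, at 4.05 (4.58 to 4.66). WT LPS replicate 4 was high for Uqcrc2, at 4.59 (4.39 to 4.42), and KO LPS replicate 4 was high for Ndufa2, at 5.56 (4.88 to 4.95).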

How the results depend on the processing

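The counts of members called between genotypes stayed within 1.5 times the main 61 after saline and 53 after LPS under every alternative run. Leaving out each array in turn gave 52 to 62 after saline, 42 to 58 after LPS, 0 to 1 for LPS in knockout and 0 to 0 for LPS in wild type and for the interaction. The lowest count after saline, 43, came without WT saline replicates 1 and 2. Under normexp the median of all genes after saline was 0.44 and 44.6% of genes were higher, and the members had 45 higher and 5 lower. Quantile scaling gave 43 higher and 5 lower after saline. Signs turned under normexp for Atp5g2 (−0.18) and Ndufs1 (−0.52) after saline, under quantile scaling for Cox5a (−0.51) after saline, and with the mean over probes for Ndufs5 (−0.023 after saline and −0.41 after LPS), whose dim probe enters that mean; the cause of the others was not tested. The genes with probes called in opposite directions were 2 after saline and 3 after LPS, and under normexp 4 and 0; the cause was not tested.

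The replicate numbers of the array files do not pair arrays (correlations of same-numbered arrays −0.38 to 0.34, median −0.01), and with the replicate block 57 and 50 members were called. With the slide as a random block (correlation 0.20) the counts were 56 and 48. The interaction was not run with only the 2 groups compared. The number of arrays and signals near background limit what could be called.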
